A study of Mus musculus with 12 samples.

Results

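The RNA compared here came from hearts of PTCD1 knockout (KO) mice and wild type (WT) mice, and all of it had been treated with CMC before the libraries were made. These are 6 of the 12 libraries of the study, 3 KO and 3 WT, taken by their labels for genotype and treatment. The other 6 libraries hold untreated RNA of the same genotypes and serve below as the background of each chemical readout. The labels give total heart RNA for every library, with cytoplasmic ribosomal RNA removed by Ribo-Zero beads and a TruSeq library preparation. They do not give age, sex, strain, the allele or promoter by which the gene was deleted, or whether a library is 1 heart or a pool, so p-values measure the spread between libraries. The deposited readouts of each library are read counts per gene and, for each base of the mitochondrial genome, the depth with the reads that carry a mismatch or a deletion there.

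PTCD1 is a pentatricopeptide repeat protein of the mitochondrial matrix that binds RNA. It belongs to a group of proteins that mature the 16S ribosomal RNA, the RNA of the large mitochondrial ribosomal subunit, and that group includes RPUSD4, an enzyme that converts uridine to pseudouridine. CMC, a carbodiimide, attaches to pseudouridine and stays there after an alkaline wash, and reverse transcriptase that meets the adduct can stop, skip a base or misread it. The mitochondrial genome is transcribed into long RNAs in which tRNAs lie between the other genes, and cutting out the tRNAs frees the rRNAs and mRNAs.

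The 6 libraries held 10389398 to 12462093 counts, of which 2683284 to 3187748 were on nuclear genes. WT replicate 3 stood apart from the other WT libraries: its nuclear counts differed from theirs by a chi-square of 1.96 and 2.28 per degree of freedom, against 1.35 between WT replicates 1 and 2 and 1.18 to 1.32 among the KO libraries. The biological coefficient of variation was 5.44%, and 3.90% without WT replicate 3. Xist, the RNA that coats the inactive X chromosome of females, had 738, 485 and 584 counts in KO replicates 1 to 3 and 0, 1 and 2 in WT, a ratio of 616 (95% counting interval 211 to 2992). Y-linked genes were read in all libraries: Ddx3y had 280, 294 and 293 counts in KO and 335, 399 and 349 in WT, and Uty had 125, 104 and 83 against 193, 231 and 219. The labels do not name sex or pooling, and any part of sex in the results below cannot be told apart from genotype. Of 382 X-linked genes tested, 51.8% passed the test described below, against 54.3% of 11742 autosomal genes.

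Ptcd1 itself (ENSMUSG00000029624, minus strand of chr5:145147514-145167108 in mm10) was read 23, 21 and 20 times in KO and 79, 103 and 74 times in WT. Every KO library was below every WT library, and Ptcd1 fell 3.89-fold (log2 -1.96, SE 0.19, edgeR adjusted p = 2.82e-10), with reads remaining in KO. Of the 8 genes of the 16S maturation module, Ptcd1 and Rpusd4 passed the test. In CPM, the counts of a gene per 1000000 counts of the library scaled by TMM, Rpusd4 stood at 1.27, 1.58 and 1.35 in KO and 3.07, 1.88 and 1.74 in WT, without overlap and with a log2 difference of -0.67 (SE 0.28, adjusted p = 0.0479). That call is at the edge of the threshold. It was lost with DESeq2 (adjusted p = 0.257), with DESeq2's size factors (0.0568), with no filter on low counts (0.0683), without any 1 of the KO libraries (0.0673 to 0.145) and without WT replicate 1, where the difference was -0.37 (0.344). Log2 differences of the others, none of which passed, were 0.63 for Fastkd5, 0.31 for Ngrn, 0.06 for Fastkd2, -0.14 for Rcc1l, -0.28 for Trub2, another pseudouridine synthase, and -0.42 for Rpusd3. So Ptcd1 alone in this module moved by more than 2-fold.

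The 16S rRNA fell, while the 12S rRNA and 10 of the 11 mRNA features rose. mt-Rnr2, the 16S rRNA gene (chrM:1094-2675), had 778325, 705382 and 634748 counts in KO and 4739090, 5015198 and 5068178 in WT. The groups were far from overlapping, and mt-Rnr2 was 6.85-fold lower in KO (log2 -2.78, SE 0.07, adjusted p = 4.43e-24). It took 8.17% ± 0.145 (SD, n = 3) of the mitochondrial counts in KO and 64.5% ± 1.20 (SD, n = 3) in WT. mt-Rnr1, the 12S rRNA gene, had 1881542, 1674132 and 1573057 counts in KO and 433327, 457382 and 453249 in WT, again without overlap (log2 1.96, SE 0.06, adjusted p = 1.53e-21). Mitochondrial RNA as a whole took 75.4, 75.4 and 74.7% of the counts in KO and 70.8, 70.5 and 72.4% in WT, a difference of 3.90 percentage points (exact two-sided permutation p = 0.1, the smallest that 3 against 3 allow).

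Of the 11 mRNA features counted, 10 rose and 1 fell, with a median log2 difference of 1.51, against 27.1% of all genes called higher, 27.2% called lower and a median of -0.01 over the 12144 genes tested. The rises were largest for complex I subunits next to the rRNA genes. mt-Nd1 was at log2 2.52 (SE 0.08) and mt-Nd2 at 2.58 (SE 0.09), 5.72-fold and 5.97-fold, and mt-Nd3 was at 2.22 (SE 0.06). The ATP synthase pair mt-Atp8 and mt-Atp6, counted as 1 feature, rose by 1.72, mt-Nd4l with mt-Nd4 by 1.65, mt-Cytb of complex III by 1.51 and mt-Co2 of complex IV by 1.36. mt-Co1 and mt-Co3, the other complex IV subunits, were nearer to WT at 0.85 and 0.76. mt-Nd5, the last complex I gene of its strand, had 295282, 274649 and 247932 counts in KO and 167978, 159885 and 216335 in WT (0.61, SE 0.08, adjusted p = 1.94e-07). mt-Nd6, the one mRNA of the other strand, had 7209, 5849 and 5314 counts in KO against 10740, 9952 and 15591 in WT (-0.96, SE 0.10, adjusted p = 2.52e-09). It overlaps mt-Nd5, the sources used here do not give the strand setting of the counting, and by depth over its whole span mt-Nd6 was at 0.22 and was not called.

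**Figure D1:**
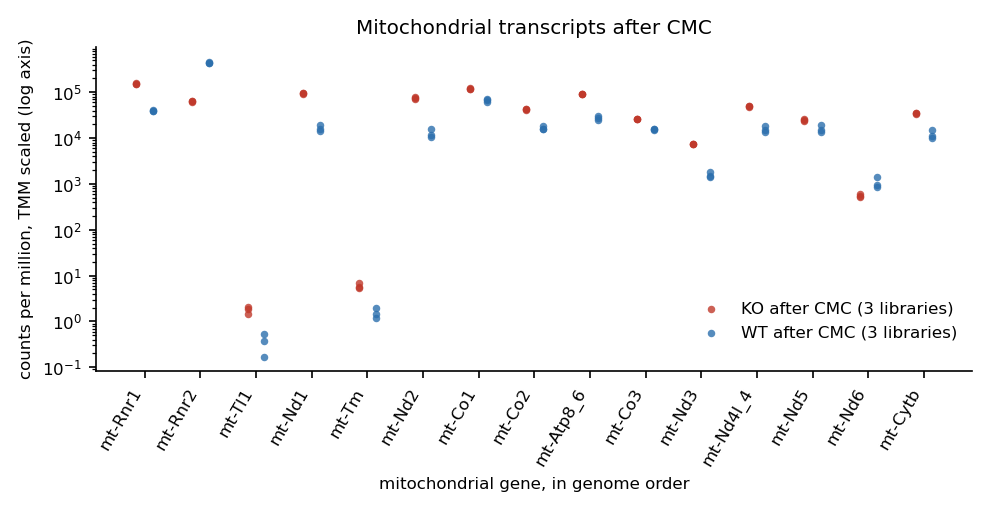
CPM scaled by TMM (log axis) for the mitochondrial gene features in genome order, 1 point per CMC library, KO in red and WT in blue. mt-Rnr2 is the only rRNA lower in KO (log2 -2.78) and mt-Nd6 the only mRNA lower in KO (-0.96), while mt-Nd1 and mt-Nd2 show the widest gaps upward (2.52 and 2.58).

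Depth per base gave the same measure for the tRNA genes, which cut the genome into its transcripts. Of 38 features 32 passed limma's test (84.2%), 29 higher (76.3%) and 3 lower (7.89%) in KO. mt-Tf and mt-Tl1, the tRNA genes for phenylalanine before mt-Rnr1 and for leucine after mt-Rnr2, rose by 2.50 (SE 0.09) and 2.63 (SE 0.11) on the log2 scale. mt-Tv, the valine tRNA gene between the rRNA genes, rose by 1.40 (SE 0.16). Besides mt-Rnr2 at -2.64, mt-Th and mt-Ts2, neighbouring tRNA genes for histidine and serine, fell by 0.79 and 0.65. mt-Ts1, mt-Td, mt-Tk, mt-Tl2, mt-Nd6 and mt-Te were not called. Depth does not tell a free tRNA from a tRNA inside a longer RNA.

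Depth across gene borders was set against the depth of the genes on either side, as the mean over the 10 bases centred on a border divided by the geometric mean of both genes. It passed the test at 22 of 36 borders (61.1%), with 5 higher in KO (13.9%) and 17 lower (47.2%). With the lower of the 2 depths as denominator 22 were called as well, but 10 higher and 12 lower. Both ends of mt-Rnr2 were among the 5. At the border of mt-Rnr2 and mt-Tl1 the ratio was 0.325, 0.317 and 0.331 in KO and 0.0513, 0.0452 and 0.0468 in WT (log2 2.77, SE 0.06, limma adjusted p = 1.03e-07). At the border of mt-Tv and mt-Rnr2 it was 0.129, 0.130 and 0.123 against 0.0365, 0.0361 and 0.0380 (1.79, SE 0.05, adjusted p = 1.71e-07). Neither border showed overlap between the groups. Both values depend on the denominator, which holds the lowered mt-Rnr2: over the lower of the 2 depths they were 0.13 (adjusted p = 0.0959) and -0.23 (adjusted p = 0.0379). The border of mt-Tt and mt-Tp, tRNA genes on opposite strands, kept its direction under that choice, at 0.802, 0.853 and 0.874 in KO and 0.326, 0.421 and 0.307 in WT (1.28, and 0.65 over the lower depth). The border of mt-Atp6 and mt-Co3, which has no tRNA, was at 0.103, 0.107 and 0.10 in KO and 0.301, 0.290 and 0.365 in WT (-1.62, and -1.14 over the lower depth).

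Within mt-Rnr2 the course of the depth near the ends of the gene also differed. The drop or rise in depth from a base to its 3′ neighbour is called a step here: log2 of the neighbour's depth over the base's own, with 1 added to both. At 122 of 15516 bases the step differed (0.786%), at 64 with a higher value in KO (0.412%) and at 58 with a lower one (0.374%), and mt-Rnr2 held 31 and 25 of these. The count rests on single libraries, with 3022 bases called without WT replicate 3 and 9 at the fewest without another. Just before the annotated 3′ end, WT depth dropped after bases where KO depth hardly did. A little upstream of them depth fell in both genotypes. From base 1550 to base 1563 it went from 43724, 40400 and 38521 to 13326, 12688 and 11468 in KO. In WT it went from 337070, 369278 and 334286 to 46024, 35208 and 53606. After base 1564 of the gene the step was -0.15, -0.16 and -0.15 in KO and -1.28, -1.25 and -1.44 in WT (difference 1.17, limma adjusted p = 0.00435, and 0.0586 without KO replicate 3). After base 1567 it was -0.03, -0.04 and -0.04 against -0.99, -0.99 and -1.07 (0.98, limma adjusted p = 0.000682). Untreated RNA had steps of -0.10, -0.08 and -0.10 in KO and -1.44, -1.41 and -1.41 in WT after base 1564. After base 1567 untreated RNA had -0.0225, -0.0195 and -0.0245 in KO and -0.85, -0.84 and -0.78 in WT. Both steps thus lay apart by genotype without CMC as well. KO had a drop near the 5′ end, after base 254, of -1.12, -1.16 and -1.07 where WT had -0.06, -0.06 and -0.09 (-1.04, SE 0.03, limma adjusted p = 0.000682). Upstream of that base depth fell in both genotypes here too. From base 210 to base 254 it went from 215086, 201358 and 173256 to 56997, 60259 and 50772 in KO. In WT it went from 615736, 665734 and 512901 to 195756, 214782 and 158360. In untreated RNA base 254 had a step of -0.81, -0.81 and -0.80 in KO and -0.06 in each WT library, so the drop was there without CMC. The 2 windows below are the coding strand of mm10 around these drops in depth, with the last base before the drop in capitals. No ends of the RNA were mapped, and the word break in a label stands for a drop in depth.
16S 5′ break, chrM:1327-1367: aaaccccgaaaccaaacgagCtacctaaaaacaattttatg
16S 3′ drop, chrM:2637-2677: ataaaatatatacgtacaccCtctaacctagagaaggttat

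Deletions were more frequent with CMC than without, and their share was lower in the KO libraries. Over all mitochondrial bases there were 55.6, 48.2 and 54.4 deletions per 1000000 aligned bases in KO and 88.2, 107 and 59.7 in WT after CMC, and 20.02 to 21.6 in the untreated libraries. At T, the letter for uridine in the RNA, the means were 63.5 ± 6.70 in KO and 124 ± 45.6 in WT (SD, n = 3 each). The groups did not overlap in either measure (exact two-sided permutation p = 0.1, the smallest possible), but WT replicate 3 lay close to the KO libraries. This library also had the lowest median deletion share of the WT libraries over the positions tested, at 0.892 of the average, against 1.33 and 1.61 in WT replicates 1 and 2 and 0.762 to 0.90 in KO. How far the reaction itself went in each tube was not tested, so the deletion differences named below are also given after division by that median, a scaling chosen after seeing the data.

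Position by position, 29 of 2512 tested bases passed edgeR's test (1.15%), 2 higher (0.0796%) and 27 lower in KO (1.07%). Of the 29, 16 were at T, where 35.4% of the tested bases are T. mt-Rnr2 held 1 of the higher and 19 of the lower bases among 617 tested, mt-Rnr1 held 2 lower bases among 240, and the rest of the genome held 1 higher and 6 lower among 1655. The median log2 difference was -0.75 in mt-Rnr2, -0.59 in mt-Rnr1 and -0.60 elsewhere. After the scaling 21 bases were called (0.836%), 8 higher (0.318%) and 13 lower (0.518%). These counts depend on WT replicate 3, since 684 bases were called without it and 2 or 3 when any other library was left out.

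Bases that gain deletions with CMC were picked from all CMC against all untreated libraries, without regard to genotype: a depth of at least 1000 everywhere, a mean share of deleted reads of at least 0.1% with CMC and at most 0.02% without. Of the 24 such bases reported here 13 were at T, and they lay in runs of 1 or 2 bases in mt-Rnr1 (3), mt-Rnr2 (4), mt-Nd3 (3), mt-Nd5 (5) and elsewhere. The windows below show 4 of them on the coding strand of mm10, with the gained T in capitals: the base of mt-Nd3 with the highest share, another of mt-Nd3 with the lowest log2 difference, and for comparison 1 base each of mt-Rnr1 and mt-Nd2.
mt-Nd3 base 71, chrM:9509-9549: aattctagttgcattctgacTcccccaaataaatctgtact
mt-Nd3 base 158, chrM:9596-9636: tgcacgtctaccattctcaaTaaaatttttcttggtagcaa
mt-Rnr1 base 301, chrM:350-390: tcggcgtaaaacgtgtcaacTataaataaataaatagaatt
mt-Nd2 base 411, chrM:4304-4344: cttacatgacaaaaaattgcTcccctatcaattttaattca

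None of these bases passed the test with all libraries. All 23 that could be tested had a negative log2 difference. By edgeR 0 were called, 8 had an unadjusted p under 0.05, and 0 were called after the scaling. In 9 of the 24 all KO libraries were below all WT libraries, against 0 the other way. Most bases shared that sign, with a negative difference at 84.9% of those tested in mt-Rnr2, 81.2% in mt-Rnr1 and 82.8% elsewhere. Of all 2512 bases tested, 519 had an unadjusted edgeR p under 0.05. The share of all bases without overlap was not counted. The median of the 23 was -0.44, and 0.12 after the scaling, beside -0.62 over all 2512 bases tested. At base 71 of mt-Nd3, the most deleted of the 24, KO libraries had 0.394, 0.373 and 0.398% and WT libraries 0.589, 0.740 and 0.388% (-0.56, adjusted p = 0.176, and 0.05 scaled). Base 158 of mt-Nd3 had the lowest log2 difference of them, at 0.0635, 0.0508 and 0.0845% against 0.338, 0.398 and 0.168%, without overlap and with 0 in every untreated library, but it was not called (-2.17, SE 0.56, adjusted p = 0.0749, and -1.56 scaled). Bases 301 of mt-Rnr1 and 411 of mt-Nd2 had log2 differences of -0.77 (adjusted p = 0.132) and -0.68 (adjusted p = 0.233), and of -0.19 and -0.06 scaled. Without WT replicate 3, 9 of the 23 bases were called, all lower in KO, these 4 among them (adjusted p = 3.06e-05, 0.00024, 0.000425 and 0.000251 in the order given). Over all bases tested 684 were called without that library, 676 of them lower in KO, so such calls were not particular to the 23.

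**Figure D2:**
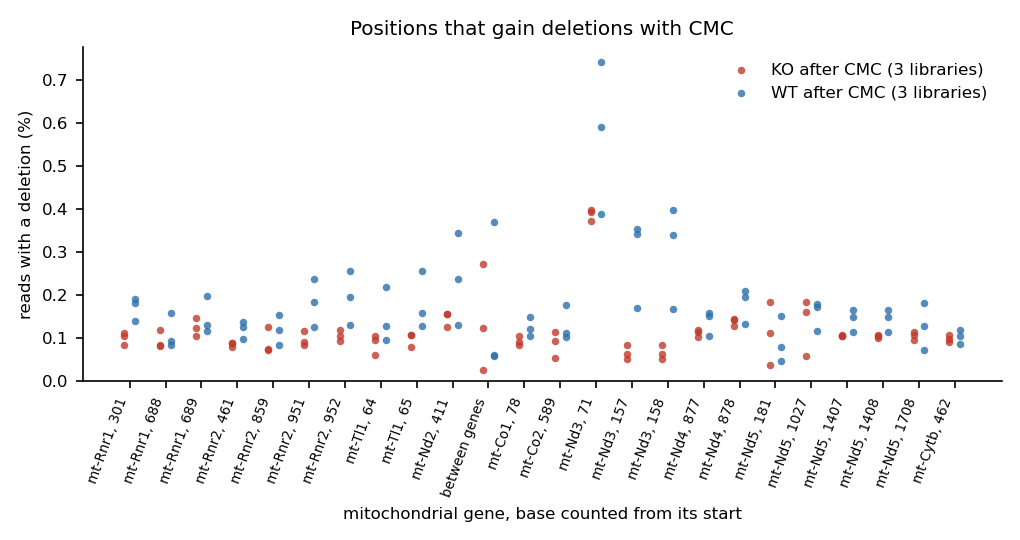
Share of reads with a deletion (%) at the 24 reported bases that gain deletions with CMC, 1 point per CMC library, KO in red and WT in blue, bases named by gene and number from the gene's start. Groups lie well apart at bases 157 and 158 of mt-Nd3 (at base 158, KO at most 0.0845% and WT at least 0.168%), while base 71 of mt-Nd3 has the highest shares in both genotypes.

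Other called bases were outside these 24. Base 182 of mt-Rnr2 had 0.0282, 0.0195 and 0.0223% in KO and 0.0800, 0.106 and 0.0377% in WT (-1.67, SE 0.30, adjusted p = 0.0144), without overlap, and after the scaling it was at -1.02 (adjusted p = 0.00543), but limma on the log odds did not call it (adjusted p = 0.274). The call was also lost without any 1 of the KO libraries (adjusted p = 0.152, 0.165 and 0.164) and without WT replicate 1 (0.205). Depth at base 182 was 986683, 989038 and 984115 in WT after CMC, near the depth limit of 1000000, where values may be clipped. Leaving out positions this deep removed base 182 and left 12 called bases in all, against 29. Base 1319 of mt-Nd5, at the end of a run of C, went the other way, with 0.411, 0.398 and 0.573% in KO and 0.0266, 0.0479 and 0.0535% in WT (3.39, SE 0.36, adjusted p = 1.86e-05, and 3.88 scaled), a call that limma did not make (adjusted p = 0.111). That base was just as high without CMC, at 0.406, 0.339 and 0.514% in KO and 0.0509, 0.0585 and 0.050% in WT. Its window is shown with the deleted T in capitals.
mt-Nd5 base 1319, chrM:13040-13080: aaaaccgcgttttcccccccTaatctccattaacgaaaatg

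Mismatches separated the genotypes at 3 of 9048 bases (0.0332%), 2 higher (0.0221%) and 1 lower (0.0111%) in KO. Base 745 of mt-Nd2, a C, was misread in 0.140, 0.127 and 0.128% of KO reads and 1.49, 1.16 and 1.57% of WT reads (-3.41, SE 0.17, adjusted p = 6.37e-05), with 0.0907 to 0.106% and 1.17 to 1.70% in untreated libraries. Base 255 of mt-Co3 was at 0.562, 0.532 and 0.466% in KO against 0.0758, 0.0490 and 0.0509% (3.14, adjusted p = 0.000731). In untreated libraries it was at 0.892, 0.534 and 0.647% in KO and 0.0402, 0.0849 and 0.0719% in WT. Base 1563 of mt-Rnr2, at the 3′ drop shown above, was at 0.203, 0.347 and 0.235% against 0.0196, 0.0114 and 0.0131% (4.10, adjusted p = 0.00171). Without CMC this base was at 0.233, 0.221 and 0.288% in KO and 0.0061, 0.0079 and 0.0235% in WT. WT replicate 1 misread A more often than the rest, at 1448.5 per 1000000 bases against 709 to 832 in the other CMC libraries, and 23 bases were called without it.

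Among all genes, 6591 of the 12144 tested passed edgeR's quasi-likelihood test at an adjusted p under 0.05 (54.3%), 3292 of them higher and 3299 lower in KO, and the 2 groups did not overlap for 7169 (59.0%). DESeq2 called 4891 of 15529 (31.5%). Shares this high mean that a list of genes stands out here by direction and size more than by the number called.

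The genes that rose most were those that hardly any WT library had. Gdf15, a secreted stress hormone that acts on appetite centres, was read 332, 320 and 279 times in KO and 0, 0 and 1 times in WT, a ratio of 953 (171 to 37670). Slc7a11, the cystine importer, had 765 counts in KO in all and 1 in WT (783, 140 to 30960). Vmn2r3, annotated as a vomeronasal receptor, had 715 counts against 0, at least 244-fold with the WT group set at a floor of 3 counts. On the same basis Ostn, a secreted peptide that blocks clearance of natriuretic peptides, was at least 88.7-fold higher, the cationic amino acid importer Slc7a3 at least 72.0-fold, Akr1b7, an aldo-keto reductase, at least 45.4-fold, and the secreted peptide Adm2 at least 30.0-fold. The floor is less strict than the exact 95% interval given for Gdf15 and Slc7a11, whose lower limits for the same 5 genes were 198, 71.6, 58.0, 36.4 and 23.9. Nmrk2, the muscle kinase that makes NAD from nicotinamide riboside, stood at 273, 285 and 275 CPM in KO and 1.81, 1.79 and 1.65 in WT, 158-fold (log2 7.30, SE 0.09, adjusted p = 1.33e-31). Mthfd2, the mitochondrial folate enzyme that is otherwise typical of growing cells, stood at 48.8, 40.2 and 46.3 CPM against 0.723, 0.256 and 0.275. All of these were apart in every library, which was a condition for being named among the largest rises.

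Genes of the integrated stress response, which ATF4 and CHOP switch on when eIF2alpha is phosphorylated, rose almost as a whole. Of 33 members tested 31 were called higher and 1 lower, with a median log2 difference of 2.93 against -0.01 over all genes. The median was the same with the 2 members that had no WT read at their bound. Asns, which makes asparagine, was at 83.4, 87.9 and 79.8 CPM in KO and 0.632, 1.45 and 1.19 in WT, 75.5-fold (6.24, SE 0.13, adjusted p = 5.43e-26). Atf3, a transcription factor of the same response, was at 44.7, 43.6 and 45.9 CPM against 0.632, 1.02 and 0.824, and Trib3, a pseudokinase that restrains it, was at 8.06, 11 and 10.2 CPM against 0, 0.341 and 0.0916. In each of the 3 the lowest KO library was far above the highest WT library, but the 3 were named for the size of their change. Named after their values were seen, Atf4 itself rose by 3.09 (SE 0.07), Ddit3, which encodes CHOP, by 3.51 (SE 0.11), Chac1, which degrades glutathione, by 5.51 (SE 0.18), and the hormone Fgf21 had 104 counts in KO and 1 in WT (106, 18.7 to 4243). The member that fell, also named from its value, was Vldlr, a lipoprotein receptor (-1.73, SE 0.06), and the glutamine importer Slc1a5 was not called (-0.24, adjusted p = 0.166).

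**Figure D3:**
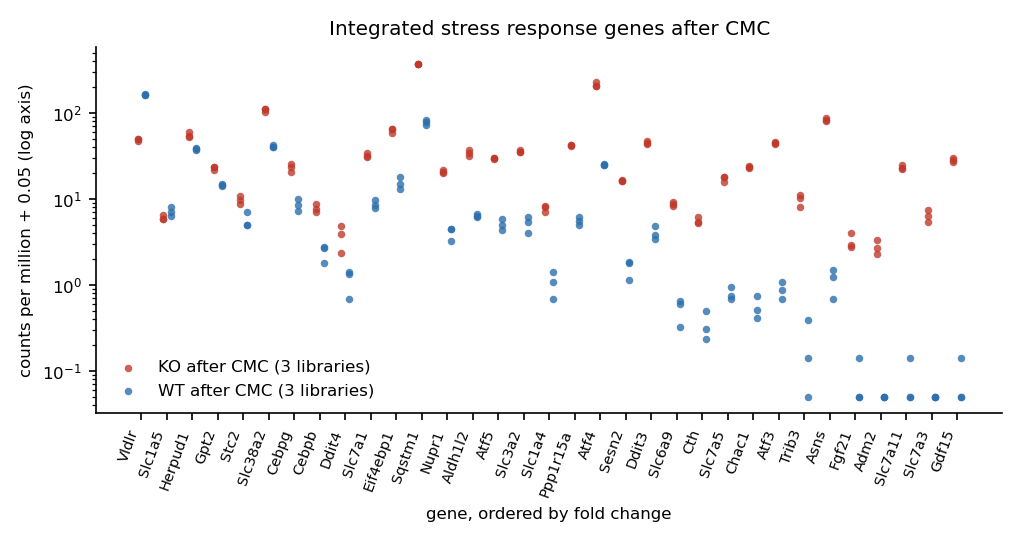
CPM plus 0.05 (log axis) of the 33 integrated stress response genes, ordered by fold change, 1 point per CMC library, KO in red and WT in blue. Vldlr at the left is lower in KO (log2 -1.73), Slc1a5 overlaps, and the genes at the right (Slc7a11, Slc7a3 and Gdf15) have almost no WT reads.

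ATF4 and its partners bind a composite CEBP-ATF element, and its letters were looked for in promoters. The motif TGATGNAA on either strand (TTNCATCA on the other, N any base) was searched from 250 bases before to 50 after the start of each gene in RefSeq's table for GRCm38.p6, the same build as mm10. It was found for 10 of the 27 integrated stress response genes with a window (37.0%), for 1219 of 27025 genes in all (4.51%) and for 0 of 32 complex I genes. The first list is of genes that ATF4 and CHOP switch on, so its higher share may follow from the choice of list. It is no result about these libraries. Vldlr, which fell, is 1 of the 10, and a match of letters is not a measured site. The windows of 4 members that rose follow on the coding strand with a match in capitals. They were picked from the members with a match, so the shared letters are no result. Gdf15, Slc7a3 and Adm2, which also rose far, were not among the 10. The window of Slc7a11 holds another match, on the other strand, in small letters.
Asns, chr6:7693200-7693257: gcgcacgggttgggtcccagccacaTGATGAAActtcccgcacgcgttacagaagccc
Fgf21, chr7:45615597-45615654: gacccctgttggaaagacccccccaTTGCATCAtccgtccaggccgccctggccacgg
Atf3, chr1:191183411-191183468: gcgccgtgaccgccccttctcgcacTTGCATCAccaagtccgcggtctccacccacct
Slc7a11, chr3:50443628-50443685: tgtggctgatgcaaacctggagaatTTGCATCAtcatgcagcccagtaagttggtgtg

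Neighbouring programmes rose with it. All 18 cytosolic tRNA synthetase genes called, of 20 tested, were higher (median 1.92), with Gars at 126, 140 and 129 CPM in KO against 16.3, 16.2 and 14.1 in WT (log2 3.08, SE 0.08) and Sars at 3.05 (SE 0.08). By contrast the synthetases that charge mitochondrial tRNAs had 3 higher and 6 lower of 20 (median -0.08), such as Cars2 at -0.96 and Iars2 at -0.51. Of 16 genes for serine, one-carbon and proline synthesis 11 rose and 1 fell (median 1.46). Phgdh, the entry enzyme of serine synthesis, was at 14.1, 14.0 and 18.6 CPM against 0.181, 0.426 and 0.275, and Psat1, the next enzyme, rose by 4.64 (SE 0.17). Pycr1, which makes proline in mitochondria, rose by 5.32 (SE 0.27). In all of these the libraries of the genotypes were apart. They were named as the called members with the largest changes, and 59.0% of all genes tested were apart, so this is no result.

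Among mitochondrial quality control genes, 12 of 20 chaperones and proteases rose and 2 fell (median 0.29). Lonp1, the matrix protease, was at 174, 172 and 171 CPM in KO and 37.1, 38.0 and 37.4 in WT, 4.60-fold (2.20, SE 0.06, adjusted p = 1.54e-23). Libraries of each genotype were nearly equal. Its co-members Grpel2 and Hspa9, parts of the import-linked HSP70 system, rose by 1.95 (SE 0.10) and 1.24 (SE 0.06), and Hspe1, the lid of the HSP60 chamber, by 1.62 (SE 0.08). In mitophagy and autophagy 5 rose and 9 fell of 18: the receptors Sqstm1 and Optn rose by 2.25 (SE 0.06) and 1.60 (SE 0.08), while Pink1, the kinase that marks damaged mitochondria, fell by 1.44 (SE 0.06). Of 24 NRF2 and antioxidant genes 15 rose and 4 fell (median 0.58), led after Slc7a11 by Hmox1 (4.11, SE 0.23), which breaks down haem, the metallothionein Mt2 (4.01, SE 0.17) and Srxn1 (3.28, SE 0.11).

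Nuclear genes for the respiratory chain went down together, opposite to the mitochondrially encoded mRNAs of the same complexes. In complex I 31 of 36 fell and 1 rose (median -0.59), in complex II 4 of 4 fell (-0.69), in complex III 9 of 9 (-0.54), in complex IV 11 of 14 fell and 2 rose (-0.41), and in complex V 14 of 16 fell and 1 rose (-0.55). Ndufs1, the largest subunit of complex I, was at 123, 113 and 118 CPM in KO and 216, 218 and 219 in WT, 1.84-fold lower (-0.88, SE 0.05, adjusted p = 9.45e-15). Ndufs3, a subunit of the peripheral arm, fell by 1.02 (SE 0.09), Uqcr11 of complex III by 1.15 (SE 0.07) and Atp5e of complex V by 1.07 (SE 0.09). In complex IV the heart and muscle forms Cox7a1 and Cox8b were among the 11 that fell, by 1.36 (SE 0.08) and 1.24 (SE 0.08), and the 2 that rose were Cox6a1 and Cox8a, widely expressed forms, with Cox8a at 46.5, 46.6 and 50.3 CPM against 25, 26.3 and 24 (0.93, SE 0.07). These differences were a fraction of the stress response changes but exceeded the spread between libraries by far.

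Fuel genes followed. Of 33 fatty acid uptake and oxidation genes 27 fell and 3 rose (median -0.83). Lpl, the lipase that frees fatty acids from lipoproteins, was at 269, 259 and 262 CPM in KO and 909, 898 and 910 in WT, 3.44-fold lower (-1.78, SE 0.05, adjusted p = 3.70e-23). Acaa2, the last step of beta-oxidation, fell by 1.5 (SE 0.06) and Ucp3 by 1.69 (SE 0.12), while Acot2, which releases fatty acids from coenzyme A in the matrix, rose by 1.45 (SE 0.08). In the TCA cycle and pyruvate dehydrogenase 14 of 21 fell and 3 rose (-0.31), with Idh2 at 181, 193 and 187 CPM against 483, 481 and 463 and Pdhb the other way (0.90, SE 0.06). Glycolysis and glucose uptake had 15 higher and 7 lower of 24 (0.40), among them Slc2a1, the GLUT1 transporter that is high in fetal heart, at 21.8, 22.4 and 21.6 CPM against 4.25, 3.75 and 4.30 (2.42, SE 0.11), and Pfkfb1, a regulator of phosphofructokinase, at -2.66 (SE 0.32). Lipogenesis and cholesterol synthesis had 17 lower and 2 higher of 31 (-0.54), with Fasn at -1.86 (SE 0.11) and Lpin1 at -1.71 (SE 0.07). Coenzyme Q synthesis had 6 lower and 2 higher of 13 (-0.33), and the paralogous kinases Coq8a and Coq8b went opposite ways, at -1.98 (SE 0.07) and 1.68 (SE 0.19).

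The machinery around the 16S rRNA showed no such common direction. Large mitoribosomal subunit genes had 15 higher and 10 lower of 48 (median 0.02), and small subunit genes 10 higher and 8 lower of 30 (-0.03). Both medians were close to that of all genes, although mt-Rnr2 was 6.85-fold lower. Single members differed: Mrpl36 was at 2.63, 1.95 and 1.63 CPM in KO and 4.52, 5.88 and 3.66 in WT (-1.17, SE 0.23), Mrpl19 rose by 1.20 (SE 0.11) and Mrps18b by 1.48 (SE 0.14). Translation factors had 1 higher and 7 lower of 23, with Tufm, the elongation factor, at 17.6, 16.4 and 17.4 CPM against 31.6, 27.4 and 29.4 (-0.78, SE 0.09). In RNA processing 7 rose and 6 fell of 35 (0.04): Trnt1, which adds CCA to tRNAs, rose by 1.40 (SE 0.12), the exonuclease Rexo2 by 1.20 (SE 0.10), and the tRNA methyltransferase Trmt5 fell by 1.13 (SE 0.14). Of 12 pseudouridine synthases 3 rose and 1 fell, with Pus1 at 1.16 (SE 0.22), Pus7 at 0.84 (SE 0.16), Dkc1 at 0.58 (SE 0.15) and Rpusd4 as above. Mitochondrial DNA and transcription genes had 2 higher and 3 lower of 18 (-0.01), such as Mterf2 at -0.79.

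Genes of excitation and contraction fell. Of 30 calcium handling and ion channel genes 26 fell and 3 rose (median -1.40). Pln, phospholamban, which restrains the calcium pump of the sarcoplasmic reticulum, was at 268, 254 and 274 CPM in KO and 1439, 1477 and 1326 in WT, 5.34-fold lower (-2.42, SE 0.06, adjusted p = 3.27e-25). Kcnj2, the inward rectifier that sets the resting potential, was at 5.26, 5.57 and 5.87 CPM against 32.6, 36.8 and 36.4 (-2.66, SE 0.10), and the channel subunit genes Kcnj3 and Kcnv2 were at -2.57 (SE 0.10) and -4.07 (SE 0.34). Sarcomere genes of the adult heart had 12 lower and 1 higher of 17 (-0.59), with Tcap, the titin cap, at -1.89 (SE 0.06) and Actc1, cardiac actin, at -1.35 (SE 0.06). Fetal and stress genes of the heart had 9 higher and 4 lower of 14 (1.46). Nppb, the B-type natriuretic peptide gene, was at 275, 307 and 281 CPM against 39.7, 43.4 and 31.0 (2.91, SE 0.08), Ankrd1, a titin-binding stress protein, rose by 2.66 (SE 0.06) and Xirp2 of the intercalated disc by 2.52 (SE 0.06). Each of these was apart in all libraries, which is no result either, since they were named for the size of their change.

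The naming rule gave these largest falls. Angpt1, a ligand that steadies blood vessels, was at 3.31, 2.97 and 2.79 CPM in KO and 46.5, 43.2 and 46.0 in WT, 14.9-fold lower (-3.89, SE 0.11, adjusted p = 5.20e-23). Gpr22, an orphan receptor of heart and brain, was at 1.27, 0.929 and 0.865 CPM against 21.3, 22.7 and 23.5, and Sbk3, a kinase of heart muscle, at 1.53, 1.58 and 2.31 against 29.8, 32.3 and 30.5. The rule took only genes whose groups do not overlap, so that the genotypes are apart here is no result. Ky, a muscle protein named for kyphoscoliosis, was at -4.90 (SE 0.32), Cilp2, a matrix protein, at -4.74 (SE 0.37), Efnb3, an ephrin ligand, at -4.18 (SE 0.24), and Adra1a, an alpha-1 adrenergic receptor, at -3.50 (SE 0.20). Smco1, Rhbdl3, Phkg1, Ces1d, Myo5c, Scn4a and B3galt2 lay between -3.80 and -3.44.

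Matrix, growth and ribosome genes rose. Of 29 extracellular matrix and fibrosis genes 23 rose and 2 fell (0.68): Ccn2, a matricellular protein of fibrosis, was at 175, 182 and 194 CPM in KO and 10.7, 11.6 and 12 in WT, 16-fold (4.0, SE 0.07, adjusted p = 4.81e-27), followed by Timp1, Thbs1 and Tgfb2 at 3.02, 2.86 and 2.68. Cytosolic ribosomal protein genes had 49 higher and 1 lower of 54 (0.57), as for Rpl3 at 83.1, 79.7 and 74.7 CPM against 24.0, 25.1 and 23.4. Many processed pseudogenes share their sequence, so single values of that list are uncertain. Of 19 p53 targets and apoptosis genes 14 rose and 2 fell (1.22), with Cdkn1a, the p21 inhibitor of the cell cycle, at 3.21 (SE 0.22). Immediate early genes had 10 higher and 0 lower of 13 (0.86), including Egr2 at 4.43 (SE 0.42) and Fos at 1.61 (SE 0.25), and Myc, a regulator of growth and biogenesis, was at 6.45, 7.80 and 7.31 CPM against 0.542, 0.426 and 0.275 (4.07, SE 0.27). Every KO library was above every WT library for these genes, but they were named for the size of their change, so that is no result.

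**Figure D4:**
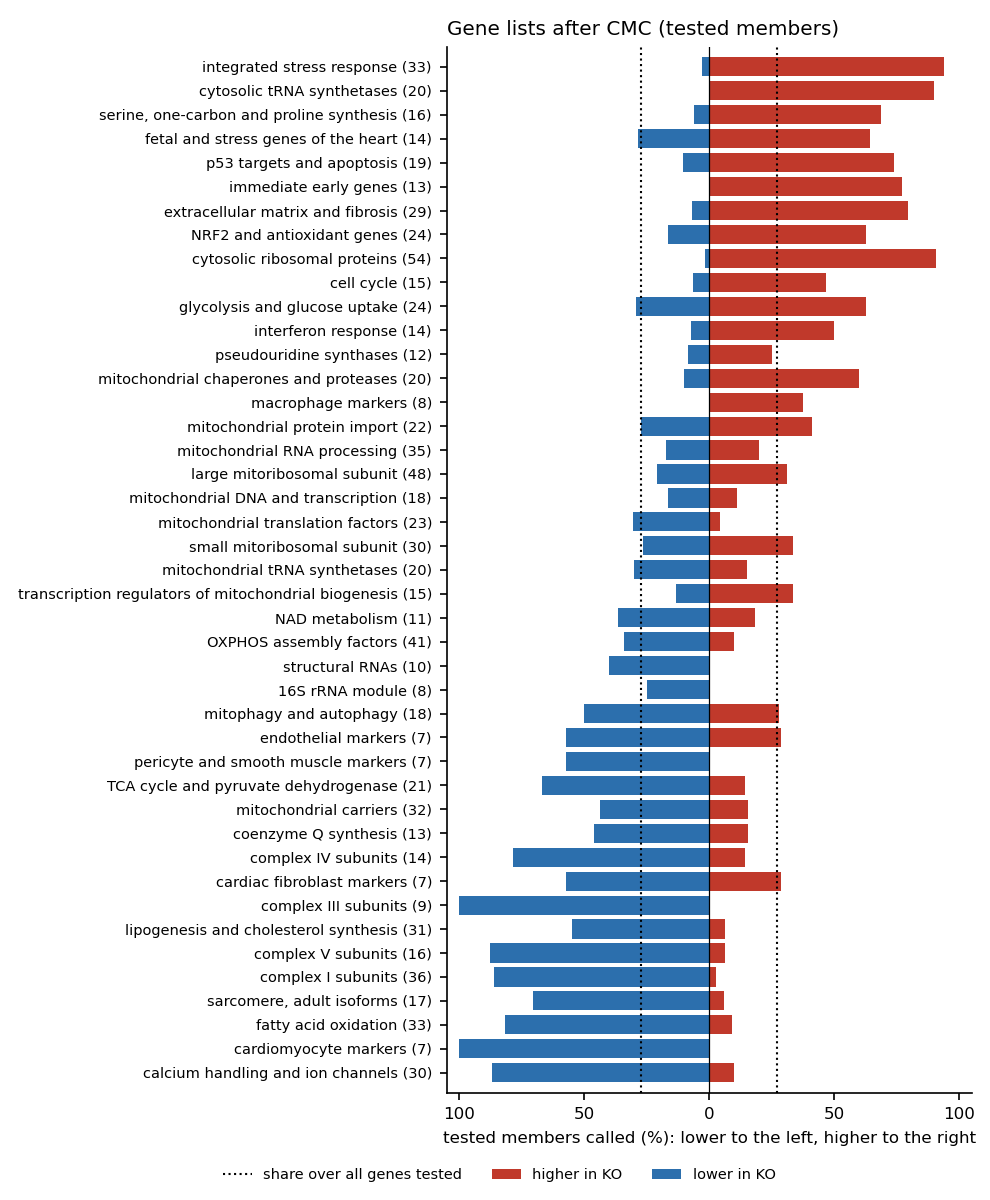
Share (%) of the tested members of each list that were called lower (blue, to the left) or higher (red, to the right) in KO, lists ordered by their median log2 difference, with the number tested in brackets. Dotted lines mark the shares over all genes tested, 27.1% higher and 27.2% lower. Complexes I and III, calcium handling and fatty acid oxidation lie at the lower end, and the integrated stress response at the upper.

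Markers of the cells of the heart are set beside the shares over all genes, 27.1% called higher and 27.2% called lower. All 7 cardiomyocyte markers fell, and their sum was 9891 to 10155 CPM in KO and 19023 to 20999 in WT, and both groups carried these markers of heart muscle at high levels. Myh6, the adult myosin heavy chain, fell by 0.85 (SE 0.06) and Ryr2, the calcium release channel, by 1.78 (SE 0.05). Fibroblast markers had 2 higher and 4 lower of 7 and summed to 303 to 322 CPM against 362 to 370, and endothelial markers 2 and 4 of 7 at 326 to 340 against 344 to 362. In both lists the 2 higher of 7 were near the share over all genes, and the medians were -0.43 and -0.21. Pericyte and smooth muscle markers had 4 lower of 7 at 460 to 476 against 623 to 653, and macrophage markers 3 higher of 8 at 117 to 123 against 96.3 to 104.9. All 5 erythroid markers tested fell, summing to 83.9 to 93.2 against 125 to 151, adipocyte markers had 3 lower of 4 at 8.55 to 11.4 against 14.6 to 24.0, epicardial markers 2 lower of 3, and none of 8 lymphocyte markers had enough reads to test. In bulk RNA fewer cells of a type and less RNA per cell cannot be told apart, and the part of cell makeup in the heart gene lists was not tested.

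Some effects of the knockout differed in size from those in untreated RNA. The difference of the effects passed edgeR's test for 187 of 12788 genes (1.46%), with 137 higher (1.07%) and 50 lower (0.391%). Mitochondrial mRNAs were among them: the effect after CMC was larger by 0.58 for mt-Nd2 (adjusted p = 7.34e-05), 0.57 for mt-Cytb, 0.52 for mt-Nd5 and 0.50 for mt-Nd1 on the log2 scale, while mt-Rnr1, mt-Rnr2, mt-Co1, mt-Co2 and mt-Co3 did not pass. For mt-Nd5 the untreated effect was 0.10 against 0.61 after CMC. Deletion differences departed from the untreated ones at 8 of 3027 bases (0.264%), 0 higher (0.0%) and 8 lower. Of the 8, 7 were in mt-Rnr2. In the test within CMC libraries 617 of 2512 bases were in mt-Rnr2, and its share of the 3027 was not counted. Among the 7, the highest WT depths of bases 59, 136, 182, 801 and 802 were 949757, 956612, 989038, 926747 and 932641. These are near the depth limit of 1000000, where values may be clipped. Bases 471 and 841 reached 599455 and 612215. The called genes numbered 634 and the bases 151 without WT replicate 3, and 83 and 2 at the fewest without another library.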

How the data were processed

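Heart RNA of 6 CMC-treated libraries (3 KO, 3 WT) was compared, and 6 untreated libraries entered the differences of effects. The authors deposited raw read counts per gene, and counts of aligned, mismatched and deleted reads per mitochondrial base. HISAT2 2.0.5, SAMtools 1.5, featureCounts 1.5.1, DESeq2 1.16.1 and mm10 are named in the submitters' processing notes without their roles. Per-base depth reached a limit of 1000000, and 169 positions (22 in mt-Rnr1, 147 in mt-Rnr2) had 900000 or more in a CMC library.

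For genes, edgeR 4.0.16 in R 4.3.3 was used on the counts (filterByExpr, TMM, quasi-likelihood test), with Benjamini-Hochberg adjustment over all genes tested and calls at 0.05. Deletions (depth of at least 100, at least 20 deletions summed) and mismatches (mean share of at least 0.1%) were tested in edgeR with log depth as offset. Feature depth, borders and steps were tested with limma 3.58.1. Standard errors are the log2 difference over the square root of F. Counting intervals are exact at 95% and, like the floor of 3 counts, cover counting error only. Of 51911 features 51718 had a symbol.

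Members and gene lists were chosen with earlier results of these data known. Named were the 16S module, the mitochondrial features, the 15 largest changes each way among called protein-coding genes of at least 2 CPM whose groups do not overlap, up to 4 called members of each list, the 5 largest differences of effects each way, and the 5 bases with the smallest p and up to 8 called bases of mt-Rnr2 for each readout. A single mitochondrial base stays in the fits and counts but is not reported here. The labels do not say whether libraries of the same number share a heart, and the main fits treated all libraries as independent. On simulated counts the gene test recovered 83.5% of 200 2-fold changes and 61.5% of 200 1.5-fold changes among 11916 genes, and the deletion test 80% of 40 2-fold changes among 2376 bases. The changed bases were drawn only from those with more expected deletions, and all simulated libraries had the same deletion share. The real libraries differed in that share, so the 80% is not the power of the deletion test on them. No batch was found in the labels. DESeq2 1.42.0, other scalings and filters, a replicate block and leaving out each library were alternatives.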

Additional observations from a re-analysis of the deposited data

Results flagged for a closer look

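The effect of the knockout differed between CMC and untreated libraries for 187 genes and 8 mitochondrial bases by edgeR's test of the difference itself. Among mitochondrial mRNAs the effect after CMC minus the untreated effect was 0.58 for mt-Nd2, 0.57 for mt-Cytb, 0.52 for mt-Nd5, 0.50 for mt-Nd1, 0.47 for mt-Nd4l with mt-Nd4, 0.45 for mt-Nd3, 0.40 for mt-Nd6 and 0.29 for mt-Atp8 with mt-Atp6 on the log2 scale. Among respiratory chain and mitochondrial protein genes it was 0.72 for Dnajc15, an inner membrane co-chaperone, 0.33 for Cox7a1, -0.33 for Uqcrfs1 of complex III, -0.41 for Sdhd of complex II and -1.20 for Mrpl36 of the large mitoribosomal subunit. Among stress and matrix genes it was 0.25 for Ankrd1, -0.56 for Nppb and -0.35 for Col1a2, and 0.26 for the ribosomal protein gene Rpsa. The largest positive differences among protein-coding genes by the naming rule were 0.87 for Zscan29, 0.87 for Pqbp1, 0.81 for Rp9, 0.81 for Srek1ip1 and 0.80 for Ikzf5. The largest negative ones were -1.34 for Id3, -0.88 for Ctdnep1, -0.85 for Aar2 and -0.75 for Pskh1, and the Y RNA gene Rny3 was at -0.82. Several of these calls rest on single libraries. When each of the 12 libraries was left out in turn, the call of Zscan29 was lost in 10 cases (it held without WT replicate 3 of either treatment), those of Ikzf5 and Ctdnep1 in 9 and that of Aar2 in 8, with adjusted p up to 0.28 by edgeR. The call of Srek1ip1 was lost without KO CMC replicate 1, KO untreated replicate 1, WT CMC replicate 2 or WT untreated replicate 2, that of Mrpl36 without KO CMC replicates 2 or 3, KO untreated replicate 3 or WT CMC replicate 2, that of Pskh1 without KO untreated replicate 1 or WT CMC replicate 1, and that of Pqbp1 without WT CMC replicate 2. Within CMC libraries alone Id3 was at 5.09, 3.34 and 4.33 CPM in KO and 7.14, 7.76 and 4.58 in WT, and its groups overlapped.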

How the results depend on the processing

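The direction and call of Ptcd1, mt-Rnr2 and mt-Rnr1 held under every alternative run: without 1 library they ranged over -2.03 to -1.84, -2.80 to -2.73 and 1.95 to 2.00. Called genes numbered 6074 to 6548 without 1 library, 7018 without a filter on low counts and 4891 by DESeq2, against 6591. Lists with over 1 in 2 tested members called in 1 direction numbered 28, and 25 to 28 without 1 library. The KO minus WT share of mitochondrial counts was 3.54 to 4.50 points without 1 library. Deletion calls were the least stable: 0 by limma on log odds (519 bases had an unadjusted edgeR p under 0.05), 12 without positions of 900000 or more, and 2 to 684 without 1 library. Without 1 library mismatch calls ranged over 2 to 23, step calls 9 to 3022, called features 32 to 34, called borders 20 to 22, genes with a difference of effects 83 to 634 and bases 2 to 151. Calls of deletions, steps and differences of effects moved most without WT replicate 3, and mismatch calls without WT replicate 1. The cause was not tested.

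With replicate number as a block, called genes numbered 6430, bases with deletions 33, steps 4 and genes with a difference of effects 186. The block left the named steps of mt-Rnr2 after bases 254, 1564 and 1567 at adjusted p = 0.0732, 0.0952 and 0.0611 by limma, and the differences of effects of Zscan29, Ikzf5 and Ctdnep1 at 0.0508, 0.0519 and 0.0566 by edgeR, and Rpusd4 at 0.0529. Same-numbered KO and WT libraries after CMC had correlations of their deviations of -0.114, -0.086 and -0.232. Same-numbered CMC and untreated libraries had -0.015, 0.132 and 0.072 in KO and -0.036, -0.027 and -0.007 in WT. The labels do not say whether such libraries share a heart, and with 3 libraries per group these values cannot settle it. No block was run for the difference of effects at bases.

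Over the lower of the 2 depths, these borders changed sign: mt-Tv and mt-Rnr2 (-0.23), mt-Ti and mt-Tq (0.21), mt-Tm and mt-Nd2 (0.14), mt-Nd2 and mt-Tw (0.012), mt-Tw and mt-Ta (0.12), mt-Tn and mt-Tc (0.17), mt-Co1 and mt-Ts1 (0.049), mt-Tk and mt-Atp8 (0.19), mt-Tg and mt-Nd3 (0.14), mt-Nd5 and mt-Nd6 (-0.20), and mt-Te and mt-Cytb (0.25). Over the named genes and bases, the features and the borders, 3747 alternative values kept the call or its absence, 173 lost the call and 22 gained it. The 3747 include values that were not called either way and changed sign. The 11 changes of sign in which a call was involved are the borders just listed. Depth limits low genes such as Rpusd4, and values near the depth limit of 1000000 may be clipped.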
